A study of Mus musculus with 12 samples.

Results

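The AP-1 and small MAF genes Jun, Junb, Jund, Fosl1, Fosl2, Batf, Batf3, Atf3, Maff and Mafk were followed through the chromatin accessibility peaks that the deposited tables annotate to them. Every peak whose nearest gene is 1 of these 10 genes was taken, which gave 328 of 281974 peaks in 3 tables. The microglia table held 196 of them among 91770 peaks, the table of NeuN+ nuclei 73 among 107627, and that of Olig2+ nuclei 59 among 82577. Peaks centred within 1000 bp of the transcription start site, by the distance in the tables, are called start-site peaks, and all others distal.

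The study compared forebrain cells of C57BL/6 mice aged 4 months that were wild type (WT) or carried SgshKO, the loss of the lysosomal enzyme that removes sulfate from heparan sulfate. The assay, ATAC-seq, uses a transposase that cuts open chromatin, and the number of sequenced tags in a peak reports how accessible it is. Microglia were sorted as live cells positive for CD11b and CX3CR1 with low CD45, whereas neuronal nuclei (NEUN+, negative for PU.1 and OLIG2) and oligodendrocyte-lineage nuclei (OLIG2+, negative for PU.1 and NEUN) were sorted after light fixation in 0.1% formaldehyde. Each of the 6 groups had 2 libraries, WT and SgshKO in each sort. The labels do not say whether the 2 libraries of a group came from separate animals, so the p-values measure the spread between these libraries, which may be technical. The labels give neither the form of the Sgsh allele nor the sex of the mice.

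AP-1 is a family of leucine-zipper transcription factors that bind DNA as pairs. JUN proteins pair with themselves or with FOS and FOSL proteins, BATF and BATF3 pair with JUN proteins and can bind beside IRF factors, and ATF3 is induced by many kinds of cell stress. The small MAF proteins MAFF and MAFK lack an activation domain: as pairs of their own they can repress, and with NRF2 or related CNC factors they bind antioxidant response elements. In macrophages, microglia included, AP-1 binds many enhancers beside the lineage factor PU.1.

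The libraries held 10771659 to 11804222 tags in microglia, 14326703 to 17706971 in NeuN+ nuclei and 15044194 to 19555924 in Olig2+ nuclei, with a median of 17 to 39 reads per peak. Peaks took up 55.75% and 48.68% of tags in WT microglia, 67.44% in SgshKO replicate 1, which stood apart, and 53.65% in SgshKO replicate 2. In NeuN+ nuclei that share was 26.71% and 25.93% in WT against 21.54% and 21.23% in SgshKO, while in Olig2+ nuclei it ran from 30.92% to 31.84%. Start-site peaks were present for 9 of 10 microglia markers in the microglia table, 10 of 10 neuron markers in the NeuN+ table and 10 of 10 oligodendrocyte markers in the Olig2+ table. Markers of other cell types also had start-site peaks: 6 of 10 oligodendrocyte, 5 of 10 astrocyte and 3 of 10 neuron markers in microglia, 5 of 10 oligodendrocyte and 5 of 10 astrocyte markers in NeuN+ nuclei, and 5 of 10 neuron markers in Olig2+ nuclei. The microglia marker Aif1 had none, and of 10 markers of blood-derived myeloid cells Ccr2, Ly6c2 and 6 others had none in microglia. The Sgsh start-site peak was found in both genotypes in all 3 sorts, with 9.1 tags in its lowest library, and accessibility there does not check the genotype.

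Microglia carried more peaks at these genes than either sort of nuclei. Jun had 37 peaks in microglia against 10 in NeuN+ and 12 in Olig2+ nuclei, and Atf3, which encodes the stress-induced partner of JUN, had 30 against 1 and 2. Batf3 had 21 against 4 and 2, and Maff 22 against 4 and 3, whereas Jund had 20, 19 and 15. All 27 distal Atf3 peaks of microglia lacked an overlapping peak in either nuclei table, against 4 of the 20 distal Jund peaks and 3 of the 14 distal Junb peaks. Over the 10 genes together 72.8% of distal microglia peaks had no overlap, close to the 72.1% of all distal microglia peaks, and 44.4% of start-site peaks had none against 26.2% of all. Of the distal peaks in nuclei, 60.3% in NeuN+ and 66.7% in Olig2+ nuclei overlapped a microglia peak, against 16.7% and 20.3% of all distal peaks there. Peak sets were called separately in each sort, so these counts also move with how many peaks were called.

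**Figure D1:**
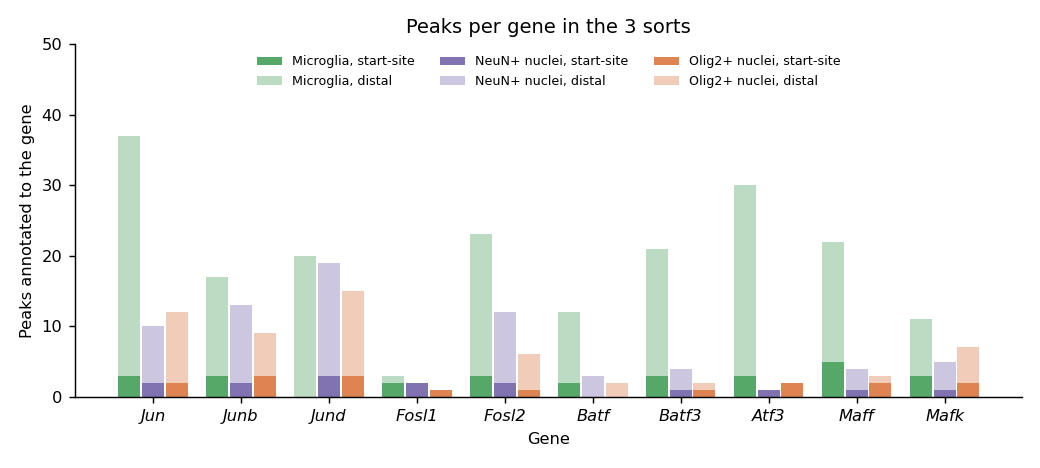
Number of peaks annotated to each gene (y axis) for the 10 genes (x axis) in microglia, NeuN+ nuclei and Olig2+ nuclei; dark bars are start-site peaks and pale bars distal peaks. Jun and Atf3 have 37 and 30 peaks in microglia, and Jund has similar numbers in the 3 sorts.

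The promoters of 4 of these genes are shown. At Mafk, Maff and Atf3 a start-site peak moved in SgshKO microglia, whereas the strongly accessible Jun start-site peak did not pass the test. That Jun peak lies upstream of the Jun stretch printed here and shares no base with it. Each line gives 250 bases before a RefSeq start site of mouse build GRCm38.p6, 5′ to 3′ on the gene's strand, with motif matches in capitals. Mafk is at chr5:139791286-139791535 on the plus strand, Maff at chr15:79347270-79347519 on the plus strand, Atf3 at chr1:191183334-191183583 on the minus strand and Jun at chr4:95052223-95052472 on the minus strand.
Mafk: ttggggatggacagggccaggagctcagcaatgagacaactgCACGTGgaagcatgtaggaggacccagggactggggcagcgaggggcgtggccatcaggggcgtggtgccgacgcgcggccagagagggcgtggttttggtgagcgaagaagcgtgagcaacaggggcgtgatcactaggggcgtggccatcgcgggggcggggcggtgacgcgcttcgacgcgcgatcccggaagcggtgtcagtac
Maff: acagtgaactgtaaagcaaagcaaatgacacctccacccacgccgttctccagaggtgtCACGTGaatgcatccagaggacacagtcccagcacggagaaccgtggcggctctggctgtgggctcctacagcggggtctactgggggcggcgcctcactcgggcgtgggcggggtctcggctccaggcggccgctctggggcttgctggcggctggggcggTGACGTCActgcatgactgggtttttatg
Atf3: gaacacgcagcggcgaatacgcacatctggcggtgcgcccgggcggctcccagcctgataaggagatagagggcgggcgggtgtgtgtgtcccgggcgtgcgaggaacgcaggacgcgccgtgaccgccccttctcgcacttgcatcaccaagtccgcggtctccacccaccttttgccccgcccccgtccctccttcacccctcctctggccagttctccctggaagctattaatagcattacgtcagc
Jun: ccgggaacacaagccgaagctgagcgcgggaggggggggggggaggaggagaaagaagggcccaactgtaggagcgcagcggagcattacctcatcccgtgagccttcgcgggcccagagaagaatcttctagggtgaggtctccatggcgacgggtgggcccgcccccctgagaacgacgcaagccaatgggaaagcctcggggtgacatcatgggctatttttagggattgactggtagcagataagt

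Of the 10 genes, 9 matched a RefSeq promoter, in 11 windows. The E-box CACGTG, the core that MITF, TFEB and TFE3 and other basic helix-loop-helix factors bind, starts 208 bases before the Mafk start site and 191 bases before the Maff start site shown, and both matches lie inside a microglia peak. Another match, 247 bases before the Batf3 start site, lies outside its peak. The cyclic AMP response element TGACGTCA, a sequence bound by CREB, ATF and JUN dimers, starts 29 bases before the Maff start site, again inside a peak. Searched on both strands of the 300 bases around each start site, the E-box is found in 7.15% of 32851 RefSeq promoters and the response element in 1.79%. The AP-1 motif TGANTCA (7.81% of promoters), the PU.1 motif GAGGAAGT (3.2%) and the CArG box of serum response factor (1.63%) were not matched in any of the 11 windows. Only exact matches were counted. The printed Jun sequence holds TGACATCA and the Atf3 sequence TTACGTCA, each a single base away from the cyclic AMP response element. The search thus does not show that these promoters lack AP-1 or ATF sites.

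In SgshKO microglia accessibility rose at many peaks of Jund, Maff and Atf3 and at the Mafk start site. By limma with Benjamini-Hochberg adjustment over all microglia peaks, 30 of 196 peaks were called at an adjusted p under 0.05, 28 higher and 2 lower in SgshKO. That is 15.3% of the peaks of these genes, where 7.37% of all microglia peaks were called. The peaks of these genes were also deeper, with a median of 56.5 tags in WT against 30.9 over the table. The part of depth in these shares was not tested. Peaks called higher made up 14.3% here and 5.05% over the table, and peaks called lower 1.02% and 2.33%. The 2 libraries of each genotype lay on separate sides at 121 of the 196 peaks (61.7%, against 51.1% over the table). Of the 28, 10 were at Jund, 10 at Maff, 6 at Atf3, 1 at Mafk and 1 at Jun, whereas none of the 17 Junb, 12 Batf, 21 Batf3 and 3 Fosl1 peaks was called. At those 4 genes 2, 1, 0 and 0 peaks had an unadjusted p under 0.05, DESeq2 called 0, and edgeR called 1 Junb peak higher and 1 Batf peak lower. Among 27 start-site peaks 4 were called, all higher (14.8%, against 9.8% called and 8.59% called higher among all start-site peaks), and among 169 distal peaks 26 were called, 24 of them higher (15.4% called, 14.2% higher and 1.18% lower, against 6.52%, 3.8% and 2.72% of all distal peaks).

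The median change of the 196 peaks was 0.23 on the log2 scale against -0.08 for all microglia peaks, where all changes are of log2(normalized tags + 1) and so understate low peaks. Scaling each library to its tags inside peaks lowers the median of all peaks to -0.28 and gave 29 higher and 11 lower calls. Quantile normalization gave 21 and 6. These calls were 20.4% and 13.8% of the 196 peaks, where 15.8% and 11.4% of all microglia peaks were called. The excess over the table was thus smaller under both scalings. Over the whole table in-peak scaling gave 5101 higher and 9418 lower calls, and quantile normalization 6489 and 4003. The calls leaned on single libraries: 3 remained on leaving out WT replicate 1 and 1 on leaving out WT replicate 2, while 33 were made without SgshKO replicate 1 (17 of them among the 30) and 60 without SgshKO replicate 2. Over the whole table the same omissions gave 1159, 557, 18850 and 16531 calls. All 30 called peaks kept their sign in each of these fits. Where the genotypes do not overlap, leaving out a library cannot turn the sign, so this adds no support there. The summed start-site tags of 14 genes known to be induced when tissue is dissociated were also apart between genotypes in microglia, 4180.2 and 3785.9 in WT against 4526.1 and 4597.3 in SgshKO. Of their 36 peaks 2 were called, 1 higher and 1 lower, where 9.8% of all start-site peaks were called. The median change of the 36 peaks was 0.04. Start-site tags of oligodendrocyte markers were apart too, 357 and 321 against 432 and 362, from 6 of 10 genes. Those of microglia markers were not apart, 2309 and 1934 against 2385 and 1841. The median change of their 17 peaks was -0.49, and 1 was called, lower. The part of these lists in the results below, and that of the share of tags inside peaks, was not tested. In sorted populations a change in every cell and a change in the share of cells cannot be told apart.

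**Figure D2:**
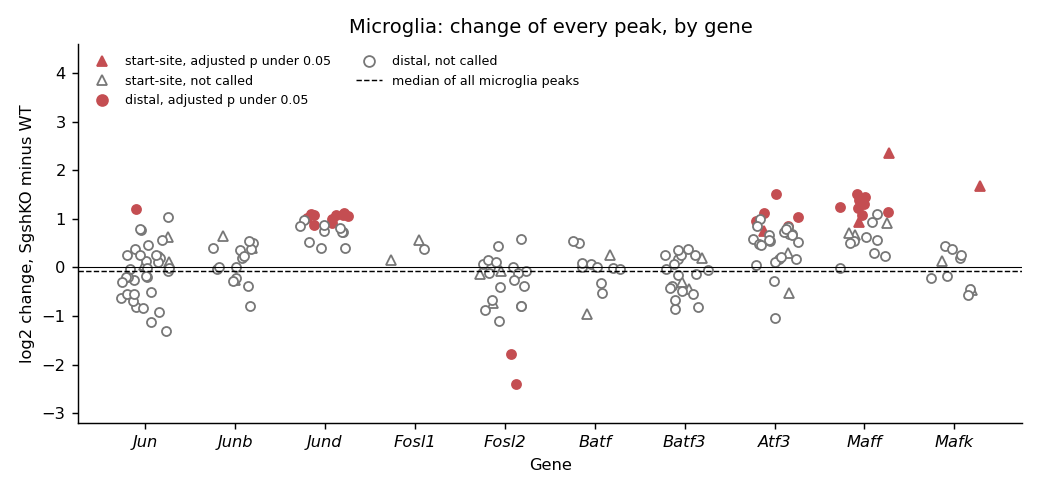
Change in accessibility (y axis, log2 of SgshKO minus WT, normalized tags + 1) of each of the 196 microglia peaks, grouped by gene (x axis). Triangles are start-site peaks, circles distal peaks and red symbols peaks with adjusted p under 0.05; the dashed line is the median of all microglia peaks, -0.08. All 20 Jund peaks lie above 0.

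Among the JUN genes, Jund stood out from Jun and Junb in the counts. JUND is the broadly expressed JUN protein, while Jun and Junb are immediate early genes. All 20 microglia peaks of Jund had a positive change, with a median of 0.90, and 10 were called (50%). The tables give no Jund peak within 1000 bp of the start site in microglia. The nearest strong peak is centred 1196 bp downstream in the 5′ untranslated region (chr8:70698830-70699040). It held 366 and 369 normalized tags in the WT libraries and 873 and 732 in the SgshKO ones. Both SgshKO libraries were above both WT libraries, a change of 1.12 ± 0.24 (standard error; adjusted p = 0.00263 by limma).

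Further downstream the Jund peaks were high mainly in SgshKO replicate 1. The most accessible of them, 5231 bp from the start site (chr8:70702839-70703101) and inside the RefSeq body of the neighbouring gene Iqcn, held 696 and 563 tags in WT and 2079 and 840.2 in SgshKO. Its change was 1.08 ± 0.28 (adjusted p = 0.0113 by limma). The peak at 6445 bp behaved alike, with 314 and 333 tags in WT and 1106 and 437 in SgshKO (1.10 ± 0.29, adjusted p = 0.0132 by limma). Most called Jund peaks lie in this far downstream stretch, at 4774, 5231, 5780, 6445, 7187, 8378 and 8843 bp, and count as Jund peaks because Jund is the nearest gene. Summed over its 20 peaks, which cover 5233 bp and reach beyond the gene, the locus held 5270 and 4732 tags in WT against 13797 and 6450.3 in SgshKO. The second SgshKO library was thus above both WT libraries, but at less than the level of the first. Without SgshKO replicate 1 the median Jund change was 0.37, 18 of 20 peaks were positive and 1 was called, the peak at 1196 bp. With either WT library left out 1 and 0 Jund peaks were called, and quantile normalization called 3, with a median of 0.39 and 19 of 20 positive.

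**Figure D3:**
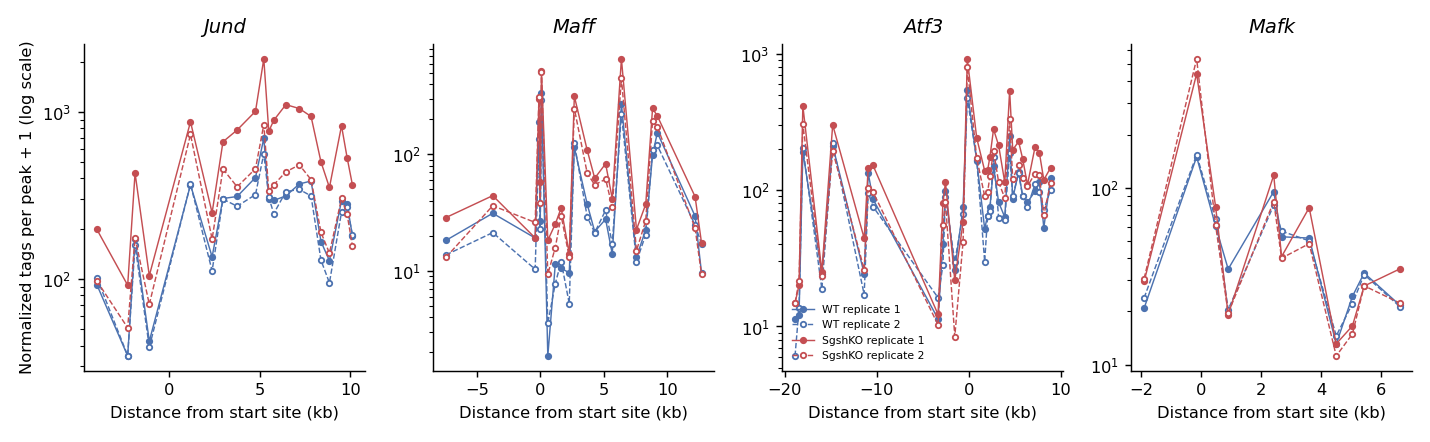
Normalized tags per peak plus 1 (y axis, log scale) against distance of the peak centre from the start site in kb (x axis) at Jund, Maff, Atf3 and Mafk in the 4 microglia libraries; filled points and solid lines are replicate 1, open points and dashed lines replicate 2, blue WT and red SgshKO. At Jund beyond 4 kb SgshKO replicate 1 lies far above the other libraries, whereas at the Mafk start site both SgshKO libraries do.

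Jun, the founding member of the family, had its highest start-site peak 358 bp upstream (chr4:95052476-95052684), in a region that the long noncoding gene Junos also covers. That peak lies upstream of the Jun stretch printed above and shares no base with it. This peak held 318 and 266 tags in WT and 311 and 289.7 in SgshKO. The libraries interleaved, with a change of 0.05 ± 0.26 (adjusted p = 0.944 by limma) that turned negative under quantile normalization and in-peak scaling. Of 37 Jun peaks 17 were positive and 1 was called, a distal peak 163158 bp upstream that rose from 57.9 and 35.6 tags to 115 and 97.5 (1.20, adjusted p = 0.0204 by limma). It was named after its value was seen, as the single Jun call. The most accessible distal Jun peak, 109221 bp upstream, held 283 and 222 tags in WT and 342 and 315 in SgshKO and was not called (adjusted p = 0.404 by limma).

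Junb, whose product restrains JUN at many targets, had a start-site peak 111 bp upstream (chr8:84978759-84978960) with 252 and 262 tags in WT and 365 and 443 in SgshKO. The genotypes did not overlap, as in 51.1% of all microglia peaks, and the change of 0.64 ± 0.26 was not called (adjusted p = 0.122 by limma). The limma model of all sorts used further below, with a spread shared by the sorts, gave the same change a standard error of 0.14. Its adjusted p there was 0.00108 by limma, so the call depended on the model. The Junb median of 0.20 over 17 peaks fell to -0.16 under quantile normalization.

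The FOSL genes encode FRA-1 and FRA-2, FOS-like partners of JUN. The start-site peak of Fosl2 held 210.0 and 209 tags in WT and 168 and 215 in SgshKO, and that of Fosl1 25.9 and 25.4 in WT and 45.9 and 32.5 in SgshKO. Neither was called, with adjusted p = 0.818 and 0.414 by limma. The 2 peaks called lower in microglia were both weak intronic Fosl2 peaks. The one 5845 bp downstream of the start site held 11.2 and 9.32 tags in WT against 3.46 and 0 in SgshKO, which are 13, 11, 4 and 0 reads (-2.41 ± 0.61, adjusted p = 0.0102 by limma), and the other lies 4848 bp downstream.

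Atf3 had the most accessible start-site peak of the 10 genes in microglia, 157 bp upstream (chr1:191183388-191183593). It rose from 539 and 472 tags in WT to 914 and 796 in SgshKO, with no overlap between genotypes (0.76 ± 0.24, adjusted p = 0.0435 by limma). Of its 30 peaks 27 were positive, with a median of 0.63. Another start-site peak, 614 bp upstream, went the other way, from 73.46 and 66.08 tags to 57.14 and 40.85 (-0.52). The peak 1518 bp upstream fell as well (-1.04). Neither was called, and at both the genotypes did not overlap. Inside the gene the peak at 1730 bp rose from 51.0 and 28.8 tags to 138 and 89.1 (1.51 ± 0.35, adjusted p = 0.00488 by limma), and the most accessible intronic peak, at 4442 bp, from 246 and 187 to 535 and 329 (0.96 ± 0.27, adjusted p = 0.0236 by limma). Quantile normalization ended the calls at the start site (0.12, adjusted p = 0.617 by limma) and at 4442 bp (0.53, adjusted p = 0.0761). In both intronic peaks, SgshKO replicate 1 was the highest library and SgshKO replicate 2 was still above both WT libraries. On leaving out WT replicate 1, then WT replicate 2, then SgshKO replicate 1, the Atf3 peaks called higher numbered 1, 0 and 3 by limma and 3, 1 and 15 by edgeR.

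No peak of the BATF genes was called by limma in microglia. BATF3 is known for its role in dendritic cells. The start-site peak of Batf3, 78 bp upstream, held 171 and 184 tags in WT and 216 and 189 in SgshKO (0.19 ± 0.27, adjusted p = 0.737 by limma). That of Batf, 364 bp downstream, held 64.0 and 59.3 tags in WT and 37.2 and 26.0 in SgshKO, a change of -0.96 ± 0.36 that did not pass the test (adjusted p = 0.0998 by limma). The most accessible distal Batf peak, 18982 bp downstream, held 385 and 339.7 tags in WT and 448 and 297 in SgshKO, so that both SgshKO libraries lay outside the WT range on opposite sides.

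The Mafk start-site peak had the smallest p of all peaks of the 10 genes in microglia. Centred 140 bp upstream (chr5:139791283-139791510), over most of the promoter printed above, it held 149 and 152 tags in WT and 439.8 and 535 in SgshKO. Both SgshKO libraries were far above both WT libraries, and the change was 1.68 ± 0.26 (adjusted p = 4.75e-05 by limma). It was the one peak called with each of the 4 libraries left out in turn, with changes from 1.54 to 1.82. The other 10 Mafk peaks were not called: the most accessible intronic one, at 2427 bp, held 94.2 and 78.8 tags in WT and 117 and 82.6 in SgshKO.

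At Maff, which encodes the other small MAF of the set, the change was spread over the gene. Of 22 peaks 21 were positive, with a median of 0.93, and 10 were called. Its most accessible start-site peak, centred 87 bp from a start site (chr15:79347850-79348447), held 335 and 293 tags in WT and 519 and 505 in SgshKO and did not pass the threshold (0.71 ± 0.25, adjusted p = 0.0773 by limma). The peak 110 bp upstream of the start site printed above (chr15:79347284-79347537), which holds both Maff motif matches, rose from 190.1 and 135 to 300.4 and 309 tags (0.92 ± 0.27, adjusted p = 0.0301 by limma, and 0.56 with adjusted p = 0.0682 after quantile normalization). No SgshKO library overlapped WT at either peak. Inside the gene, the peak at 2675 bp rose from 114 and 124 to 315 and 247 tags (1.23 ± 0.28, adjusted p = 0.00416 by limma). The most accessible intronic peak, at 6381 bp, rose from 270.5 and 223 to 661 and 450.3 (1.15 ± 0.26, adjusted p = 0.00417 by limma). A weaker one at 3691 bp rose from 36.3 and 28.0 to 107 and 67.8 (1.39 ± 0.35, adjusted p = 0.011 by limma).

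At the Maff locus both SgshKO libraries were above both WT libraries: its 22 peaks summed to 1449 and 1256 tags in WT and 2899 and 2336 in SgshKO. Without SgshKO replicate 1, 11 Maff peaks were called, and under quantile normalization 11 with a median of 0.84. With either WT library left out 0 were called, while 21 and 22 of the 22 changes were positive. At an unadjusted p under 0.05 13 Maff peaks passed with all libraries, and edgeR called 5 and 9 without WT replicate 1 and 2.

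In NeuN+ nuclei most called peaks of these genes were lower in SgshKO, in a table where lower calls were common. Limma called 31 of 73 peaks, 4 higher and 27 lower (42.5%, against 29.8% of all NeuN+ peaks). Lower calls made up 37% here and 19.6% over the table, and higher calls 5.48% and 10.2%. Genotypes did not overlap at 54 peaks (74%, background 68.5%). Of 15 start-site peaks 10 were called, all lower, which is 66.7% where 46.6% of all start-site peaks were called and 44.9% called lower. Of 58 distal peaks 17 were lower and 4 higher, where 25.2% of all distal peaks were called, 12.6% in each direction. The median change was -0.54 for these genes and -0.23 for all peaks. In-peak scaling, which moves the latter to 0.05, gave 6 higher and 20 lower calls. That was 35.6% of the 73 peaks, where 26.5% of all NeuN+ peaks were called. SgshKO libraries had the smaller share of tags inside peaks in this sort, and the start-site tags of every marker list with peaks were lower too. They were 1199 and 1105 in WT against 641 and 667 in SgshKO for neuron markers, 192 and 165.5 against 93.5 and 96.5 for oligodendrocyte, 275 and 252 against 182 and 185 for astrocyte and 54.4 and 48.0 against 34.2 and 32.4 for microglia markers. Endothelial markers gave 10.2 and 10.7 against 6.3 and 7.6, and the dissociation list 1454 and 1331 against 870.4 and 882.5. Their part in these calls was not tested.

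The decreases ran through every subfamily with a start-site peak. The peak 117 bp upstream of Junb held 156 and 169 tags in WT and 94.9 and 81.9 in SgshKO (-0.87 ± 0.12, adjusted p = 4.34e-05 by limma). Mafk, 56 bp upstream, fell from 125 and 107 tags to 68.4 and 59.1 (-0.86 ± 0.14, adjusted p = 0.000216 by limma). Jun, 124 bp upstream, fell from 248 and 242 to 178 and 149.8 (-0.58 ± 0.10, adjusted p = 0.000304 by limma). In these 3 genes no SgshKO library reached a WT library. Quantile normalization ended all 3 calls, with changes of -0.31, -0.35 and -0.01 at Junb, Mafk and Jun. The start-site changes of Fosl1 (-1.56), Batf3 (-1.16), Maff (-1.12), Jund (-0.97), Atf3 (-0.77) and Fosl2 (-0.67) were also called lower, with 13.03 to 132 tags in WT. The Atf3 call was not made by edgeR (-0.53), DESeq2 (-0.54), in-peak (-0.48), median-of-ratios (-0.56) or quantile (-0.65) scaling or with a pseudocount of 0.5. Quantile normalization also ended the calls at Maff (adjusted p = 0.0644 by limma) and Fosl2 (-0.13, adjusted p = 0.436). Batf had no start-site peak in this table. At Jund the peak 1100 bp downstream, the counterpart of the strong microglia peak, fell from 245 and 225 tags to 161 and 147 (-0.61 ± 0.09, adjusted p = 0.000171 by limma, and -0.04 with adjusted p = 0.766 after quantile normalization).

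Of the 73 NeuN+ peaks 19 had a positive change, and the 4 called higher in SgshKO are all distal and weak. The strongest lies 4647 bp upstream of Batf3 and rose from 6.23 and 10.2 tags to 25.1 and 20.95 (1.41 ± 0.29, adjusted p = 0.0017 by limma). The others, given because they are so few, lie 151617 bp upstream of Fosl2 (1.21) and 107750 and 126789 bp upstream of Jun (1.41 and 1.10). Distal peaks called lower numbered 17. Those with the smallest p were, besides Jund at 1100 bp, Jund at 2036 (-1.15) and 2985 bp (-0.92) and Junb at 2074 bp (-0.94). Fosl2 at 2703 (-1.09) and 1113 bp upstream (-0.88) and Maff at 9396 bp (-1.04) were the rest. DESeq2 called 6 of the 73 peaks and quantile normalization 16 (8.22% and 21.9%, against 4.55% and 15.6% of all NeuN+ peaks). No peak of this table was called without SgshKO replicate 1 or without SgshKO replicate 2 by limma, with 38 and 35 of the 73 at an unadjusted p under 0.05, while edgeR called 22 and 14 in the same libraries. Without WT replicate 1 or 2 limma called 19 and 16.

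In Olig2+ nuclei the genes changed at few peaks: limma called 9 of 59, 7 higher and 2 lower (15.3%, against 19.8% of all Olig2+ peaks, 8.17% higher and 11.7% lower). Genotypes did not overlap at 34 peaks (57.6%, background 61.2%). Of 17 start-site peaks 2 were called, both higher (background 20.3%, higher 12.7%), and of 42 distal peaks 7, 5 of them higher (background 19.7%, of which 6.7% higher and 13% lower). The strong Jund peak 1124 bp downstream rose from 402 and 399 tags to 517 and 528 (0.38 ± 0.06, adjusted p = 6.08e-05 by limma), while the Jund peak at 2964 bp fell from 161 and 162 to 106 and 116 (-0.54 ± 0.11, adjusted p = 0.000875 by limma). In both, the 2 libraries of a genotype lay close together and apart from the other genotype. The change with the largest size was at the Batf3 start site, where 1.04 and 1.02 tags in WT, 2 reads in each library, became 9.22 and 7.98 in SgshKO (2.24 ± 0.41, adjusted p = 0.000289 by limma). An intronic Mafk peak at 2012 bp fell from 8.82 and 13.3 tags to 2.46 and 3.32 (-1.62 ± 0.38, adjusted p = 0.00292 by limma). The other distal calls were all higher. They were Jund peaks 3918 bp upstream (1.32) and 7111 bp downstream (1.27), Junb at 1443 bp (1.17) and Jun 109189 bp upstream (0.38).

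The start sites of the other genes were not called in Olig2+ nuclei apart from a weak Junb peak. Jun, the most accessible, held 487 and 437 tags in WT and 486 and 489 in SgshKO (0.08 ± 0.07, adjusted p = 0.406 by limma), and Mafk 219 and 226 against 184 and 203 (-0.20 ± 0.09, adjusted p = 0.125 by limma). DESeq2 called 2 of the 59 peaks, both at Jund, and 5 were called without WT replicate 2. Start-site tags of the oligodendrocyte markers were lower in this sort, 3739 and 3673 in WT against 3063 and 3066 in SgshKO, and those of the dissociation list higher, 1846 and 1747 against 1966 and 2052. Microglia markers were higher as well, 240.2 and 233 against 271 and 284 from 2 of 10 genes, and so was the 1 endothelial marker with a peak, 3.6 and 2.6 against 8.6 and 10.6. Their part in these calls was not tested.

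Peaks found at one place in all 3 sorts allowed the genotype effects to be compared directly. With a reciprocal overlap of 50%, 16740 peaks matched one to one, 21 of them at these genes, and 1 limma model of the 12 libraries tested the difference of SgshKO minus WT changes between sorts. The model gives each peak 1 spread for all 3 sorts. For the Mafk start site and the strong Jund peak, the fits of single sorts gave larger standard errors in microglia than in nuclei. Differences from microglia may therefore carry too small a standard error and p-value. Between microglia and NeuN+ nuclei the difference was called at 15 of the 21 peaks, all with the larger value in microglia (42.5% of all matched peaks were called). Between microglia and Olig2+ nuclei 7 were called, 5 of them larger in microglia (background 21.6%), and between NeuN+ and Olig2+ nuclei 9, all lower in NeuN+ (background 31.7%). Over all matched peaks the median differences were 0.61, 0.17 and -0.50, and over the 21 peaks 1.23, 0.48 and -0.80. The main directions at these genes were thus those of the tables as a whole, with medians of larger size. In-peak scaling, which moves the medians of all matched peaks to 0.13, -0.05 and -0.24, gave 9, 5 and 5 calls at the 21 peaks. Of all matched peaks 27.3%, 18.7% and 14% were then called.

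The Mafk start site showed the largest of these differences between microglia and NeuN+ nuclei. Its change was 1.68 in microglia, -0.86 in NeuN+ and -0.20 in Olig2+ nuclei, a difference of 2.54 ± 0.20 (adjusted p = 1.6e-09 by limma) from NeuN+ and of 1.88 ± 0.20 (adjusted p = 6.8e-07 by limma) from Olig2+ nuclei. Both standard errors, from the shared spread, are below that of the Mafk change fitted in microglia alone. At the Jund peak 1196 bp downstream the 3 changes were 1.12, -0.61 and 0.38, and all 3 pairs differed. At the Batf3 start site the order was another: 0.19 in microglia, -1.16 in NeuN+ and 2.24 in Olig2+ nuclei, where the last value rests on the few reads given above. Microglia were live cells and the others fixed nuclei, and sort and preparation cannot be told apart.

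**Figure D4:**
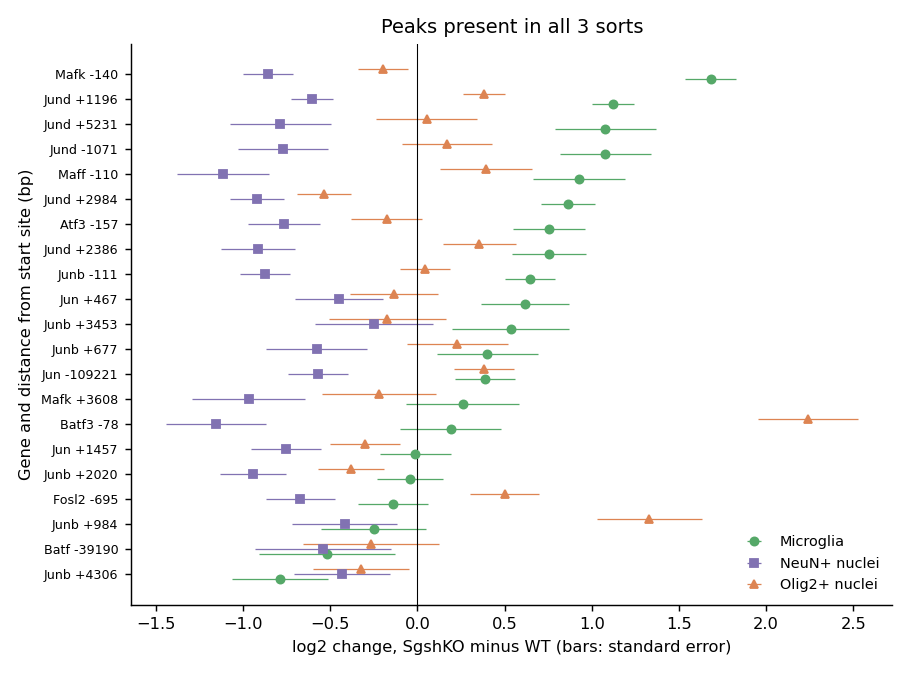
Change in accessibility (x axis, log2 of SgshKO minus WT, bars are standard errors) of the 21 peaks matched across sorts (y axis, gene and distance from the start site in bp), with circles for microglia, squares for NeuN+ nuclei and triangles for Olig2+ nuclei. The bars come from the model of all sorts, in which the spread of a peak is shared by the sorts. Every NeuN+ value is below 0, and Mafk at -140 has the highest microglia value, 1.68.

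Among WT libraries the start sites ranked differently in the 3 sorts. In tags per kb of peak, the microglia order was Atf3 (2618 and 2291), the Jund peak at 1196 bp (1733 and 1747), Jun (1522 and 1273), Junb (1249 and 1296), Fosl2 (1015 and 1011), Batf3 (747 and 803), Mafk (652 and 669), Maff (561 and 490.2), Batf (302 and 279.7) and Fosl1 (105 and 103). Jun and Junb overlapped in this order, and the 2 libraries of every other neighbouring pair did not. In NeuN+ nuclei Jun led (1047 and 1022), followed by Jund, Junb, Fosl2 and Mafk, and Fosl1, Atf3, Maff and Batf3 were all at or below 111. Fosl1 and Atf3 overlapped there, and the 2 libraries of the other neighbours did not. In Olig2+ nuclei Jun (2153 and 1935) was followed by Jund (1661 and 1650.3) and Mafk (1052 and 1084), and Batf3 was lowest (4.5 and 4.5).

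For the matched peaks the WT level was higher in microglia than in NeuN+ nuclei at 17 of 21 peaks and lower at 1 (65.8% of all matched peaks were called), and higher than in Olig2+ nuclei at 15 and lower at 2 (background 67.2%). Between NeuN+ and Olig2+ nuclei 6 were higher and 9 lower in NeuN+ (background 49.5%). These directions depended on the scaling: with in-peak scaling 8 were higher and 5 lower in microglia than in NeuN+ nuclei, 12 higher and 4 lower than in Olig2+ nuclei, and 8 higher and 6 lower in NeuN+ than in Olig2+ nuclei. The median difference of all matched peaks moved with it, from 0.47 to -0.50, from 0.35 to -0.35 and from -0.15 to 0.12. The Atf3 start site differed most between microglia and NeuN+ nuclei among the named start sites, 506 ± 47.7 tags (SD, n = 2) against 21.2 ± 2.04, a difference of 4.51 on the log2 scale. The Mafk start site was, in contrast, highest in Olig2+ nuclei, with 222 ± 4.69 tags (SD, n = 2) against 151 ± 2.72 in microglia and 116 ± 12.7 in NeuN+ nuclei. Its difference between microglia and NeuN+ nuclei turned from 0.38 to -0.61 with in-peak scaling, was not called without WT microglia replicate 1 or 2 or WT NeuN+ replicate 2, and those of Junb at -111 and Fosl2 at -695 turned as well.

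**Figure D5:**
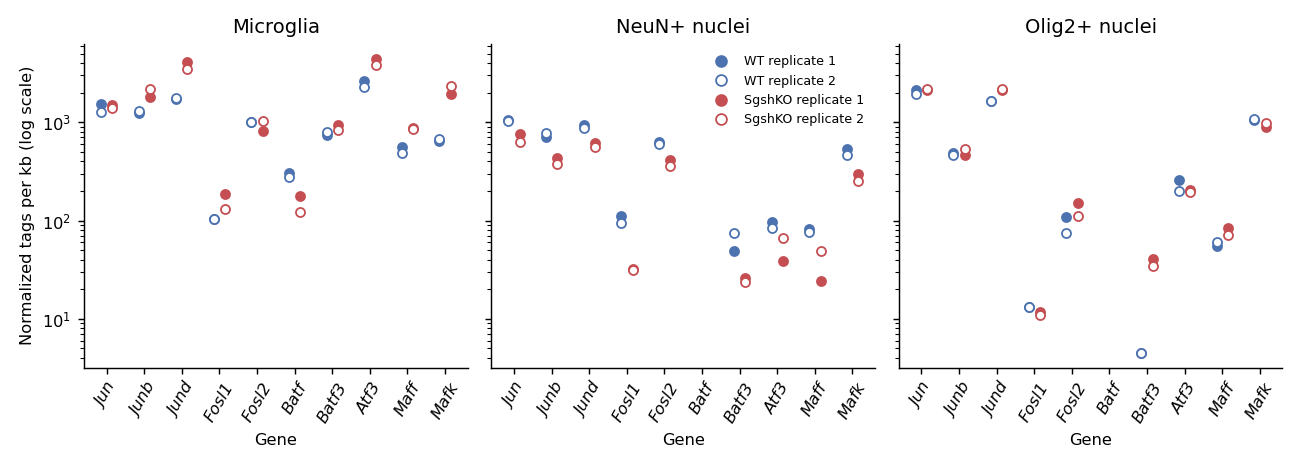
Normalized tags per kb (y axis, log scale) of the most accessible start-site peak of each gene (x axis) in microglia, NeuN+ nuclei and Olig2+ nuclei; each point is a library, blue WT and red SgshKO, filled replicate 1 and open replicate 2. For Jund the peak 1100 to 1196 bp downstream of the start site is drawn. Mafk in microglia rises from 652 and 669 to 1929 and 2345, and all NeuN+ points of SgshKO lie below those of WT.

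The partners and upstream kinases of these factors were read from 3 lists. Other AP-1 and CREB/ATF genes had 14 of 151 microglia peaks called, 8 higher and 6 lower (9.27%, against the table's 7.37%). Their start-site calls were Atf2, which rose from 141 and 86.4 tags to 257 and 372 (1.48, adjusted p = 0.00102 by limma), and Atf7 (0.95, adjusted p = 0.0396 by limma). In NeuN+ nuclei 30 of 85 peaks of this list were called, 11 higher and 19 lower (35.3%, against 29.8% of all peaks), and in Olig2+ nuclei 18 of 82, 8 higher and 10 lower (22%, against 19.8%), shares near those of the tables.

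The list of large MAF, NRF and BACH genes, whose CNC members pair with MAFF and MAFK, had 16 of 241 microglia peaks called, 9 higher and 7 lower (6.64% called and 3.73% higher, against 7.37% and 5.05%). Its 26 start-site peaks included 4 calls, all higher (15.4%, background for higher 8.59%). Nfe2l2, which encodes NRF2, rose from 578 and 502 tags to 1061 and 1095 (1.00 ± 0.23, adjusted p = 0.00554 by limma). Nfe2l1 rose from 251 and 208 to 468 and 440.0 (0.99, adjusted p = 0.013 by limma), and Nfe2 from 339 and 345 to 1002 and 592 (1.17, adjusted p = 0.00304 by limma). In NeuN+ nuclei 29 of 93 peaks of the list were called, 18 of them lower (31.2% and 19.4%, at the table's 29.8% and 19.6%). Among them the start site of Bach1, a repressor that pairs with small MAFs, fell from 168 and 160.4 tags to 71.9 and 85.7 (-1.05, adjusted p = 9.55e-06 by limma). In Olig2+ nuclei 12 of 68 were called (17.6%, against 19.8%), 7 higher, the start site of Nfe2l3 among them (0.57, adjusted p = 3.16e-06 by limma).

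The JNK module phosphorylates JUN, JUND and ATF2. It had 5 of 95 microglia peaks called, 4 higher and 1 lower (5.26%, against 7.37% of all peaks). All 5 were among its 25 start-site peaks (20%, against 9.8%). Mapk8, which encodes JNK1, rose from 165 and 125 tags to 431 and 692 (1.92 ± 0.27, adjusted p = 1.32e-05 by limma), Mapk9 for JNK2 from 290.4 and 247 to 583 and 649.9 (1.20, adjusted p = 0.00192 by limma), and Dusp10, a JNK phosphatase, from 219.5 and 179 to 416 and 502 (1.20, adjusted p = 0.00275 by limma). In NeuN+ nuclei 34 of 114 were called, 27 lower (29.8% and 23.7%, against 29.8% and 19.6% of all peaks), with Mapk8 falling from 389 and 352 to 207 and 211 (-0.82, adjusted p = 2.07e-06 by limma). In Olig2+ nuclei 20 of 95 were called (21.1%, against 19.8%), 15 of them higher, and 11 of these calls were among the 26 start-site peaks, 9 higher (34.6%, where 12.7% of all start-site peaks were called higher).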

How the data were processed

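ATAC-seq was measured in 12 libraries (6 groups of 2). Sequencing was single-end. Per the submitters' processing notes, Bowtie2, HOMER and build mm10 were used; no source used here gives their roles, versions, duplicate handling or read shifting. The authors deposited 1 table of peaks per sort; its signal is the tags per peak and library, scaled per the file headers so that the library total equals 10000000 tags. Reversing this scaling recovered whole reads for 100% of values within 0.01, which were used for edgeR and DESeq2.

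log2(normalized tags + 1) was compared between genotypes with limma 3.58.1 in R 4.3.3 (lmFit, eBayes with trend, two-sided, no covariate, no filter), adjusted by Benjamini-Hochberg over the table; a peak was called at adjusted p under 0.05. Each ± is the standard error unless SD is stated. Alternatives were edgeR 4.0.16 (quasi-likelihood), DESeq2 1.42.0, other pseudocounts, filters, scalings and windows, a replicate block and omission of each library; edgeR without each library was added after the data were seen. The limma and edgeR steps were tested on simulated data. Overlaps were found with bedtools 2.31.1; those that give no minimum needed 1 bp.

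The genes, lists and tests were chosen with earlier results of these data known. The rule for naming took, per sort, each gene's most accessible start-site peak, its most accessible distal peak and the 8 called distal peaks with the smallest p. It also took the called sort differences (at most 4 per pair) and at most 3 called start-site peaks per list. Some peaks of this rule are not given with values: most accessible peaks that were not called, and list peaks. Any other peak named was chosen after its value was seen, or is the counterpart of a named peak. Promoters are RefSeq's (GRCm38.p6, the mm10 assembly).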

Additional observations from a re-analysis of the deposited data

Results flagged for a closer look

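Differences between sorts in the SgshKO minus WT change drew attention at matched peaks of Mafk, Jund, Junb and Batf3. Each was tested in the limma model of all 12 libraries, in which the spread of a peak is shared by the sorts. Microglia exceeded NeuN+ nuclei by 2.54 at Mafk -140 (adjusted p = 1.6e-09 by limma), by 1.73 at Jund 1196 (adjusted p = 2.51e-08), by 1.78 at Jund 2984 (adjusted p = 5.7e-07) and by 1.52 at Junb -111 (adjusted p = 1.76e-06), where signed numbers after a gene are distances from the start site in bp. Microglia exceeded Olig2+ nuclei by 1.88 at Mafk -140 (adjusted p = 6.8e-07 by limma), by 1.40 at Jund 2984 (adjusted p = 5.56e-05) and by 0.74 at Jund 1196 (adjusted p = 0.00282), while the difference at Batf3 -78 was -2.05 (adjusted p = 0.000699). NeuN+ minus Olig2+ differences were -3.40 at Batf3 -78 (adjusted p = 3.49e-05 by limma), -0.99 at Jund 1196 (adjusted p = 0.00029), -0.92 at Junb -111 (adjusted p = 0.00184) and -1.27 at Jund 2386 (adjusted p = 0.00283). All 12 differences kept their sign with each of the 12 libraries left out in turn. The Mafk difference ran between 2.40 and 2.68 from NeuN+ and between 1.74 and 2.02 from Olig2+ nuclei. The 12 were picked by smallest p in this same model, and the omission fits also share the spread across sorts. The omissions are therefore no independent support. With in-peak scaling 11 of the 12 stayed past the threshold. The NeuN+ minus Olig2+ difference at Junb -111 was then -0.645 (adjusted p = 0.0835 by limma). At Batf3 the Olig2+ value rests on 2 reads in each WT library.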

How the results depend on the processing

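With 2 libraries a group, precision was limited by replicates and by a median of 17 to 39 reads per peak. Shares of all peaks called, with that of these genes' peaks in brackets, were as follows. In microglia they were 13% (24%) with median-of-ratios scaling, 15.4% (25.5%) with edgeR and 2.97% (3.06%) at adjusted p under 0.01. In NeuN+ nuclei they were 15.6% (21.9%) with quantile normalization and 4.55% (8.22%) with DESeq2. In Olig2+ nuclei they were 21.5% (11.6%) with the lowest 25% of peaks left out, 4.35% (3.39%) with DESeq2 and 9% (8.47%) at adjusted p under 0.01. The called microglia peaks of the 10 genes (30) became 47 with median-of-ratios scaling, 50 with edgeR and 6 at adjusted p under 0.01, and ranged from 1 to 60 over omissions of a library; with edgeR the omissions gave 18, 17, 63 and 77. NeuN+ calls (31) became 16 with quantile normalization and 6 with DESeq2, and ranged from 0 to 19 over omissions, against 19, 18, 22 and 14 with edgeR. At the counts of 0, all by limma, 38 and 35 peaks had an unadjusted p under 0.05. Olig2+ calls (9) became 5 with the lowest 25% of peaks left out, 2 with DESeq2 and 5 at adjusted p under 0.01, and ranged from 5 to 10. Differences between sorts fell from 15 to 9 (microglia against NeuN+) and from 9 to 5 (NeuN+ against Olig2+) with in-peak scaling, and over omissions ran from 11 to 14, 5 to 9 and 8 to 11 in the 3 pairs. Of the single named values, 16 were no longer called with DESeq2, 19 with quantile normalization and 7 with in-peak scaling while keeping their sign, besides those whose sign turned. With the replicate number as a block, 50, 34 and 9 peaks were called in microglia, NeuN+ and Olig2+ nuclei, 15, 8 and 11 sort differences and 18, 17 and 17 WT differences; deviations of same-numbered libraries correlated at 0.042, 0.004 and 0.001, so the numbers were not taken as pairs. Signs turned with in-peak scaling in microglia for Batf 18982 (-0.19), Batf3 -78 (-0.016), Jun -358 (-0.16) and Mafk 2427 (-0.017), and for WT level differences of microglia from NeuN+ at Fosl2 (-0.27), Junb (-0.32) and Mafk (-0.61) and from Olig2+ nuclei at Jun 467 (-0.38). With quantile normalization signs turned in microglia for Batf 18982 (-0.51), Batf3 -12692 (-0.18), Batf3 -78 (-0.14), Jun -109221 (-0.062), Jun -358 (-0.43) and Junb -1139 (-0.16), in Olig2+ nuclei for Batf3 27720 (0.019) and Maff 9413 (0.020), and in NeuN+ nuclei for Crem (0.038). Median-of-ratios scaling turned Batf3 27720 (0.008) and Maff 9413 (0.015) in Olig2+ nuclei, and edgeR turned the latter (0.042). Over omissions the microglia changes ran from -0.28 to 0.31 at Batf 18982, -0.022 to 0.54 at Batf3 -12692, -0.37 to 1.11 at Fosl1 1120, -0.32 to 0.039 at Fosl2 -695, -0.084 to 0.17 at Jun -358 and -0.06 to 0.44 at Mafk 2427. In Olig2+ nuclei they ran from -0.37 to 0.017 at Atf3 -223, -0.25 to 0.14 at Batf3 27720, -0.062 to 0.15 at Junb -67 and -0.29 to 0.20 at Maff 9413. None of these was called, apart from Crem and the WT differences at Fosl2, Junb and Mafk; the cause was not tested. The filter left out Fosl2 5845 in microglia and Batf3 17, Fosl1 958, Jund -3918, Jund 7111 and Mafk 2012 in Olig2+ nuclei. These have no value there.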
